A study of Homo sapiens with 10 samples.

Results

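The peaks described here are the m6A peaks of the major histocompatibility complex (MHC) on the short arm of human chromosome 6, together with those on the 7 alternative sequences of that region that hg19 carries beside the chromosome. A peak belonged to the set if its summit lay on chromosome 6 between 28.477 and 33.449 Mb of hg19, or if it was called on any of the alternative haplotype contigs of chromosome 6. The rule took 355 of 38106 peaks: 149 in HCT116, 41 in HT29, 114 in COLO320DM, 51 in COLO205 and 0 in HCT15. Of the 355, 49 lay on chromosome 6 itself and 306 on the contigs. The rule used position alone and no measured value. Each peak has a fold enrichment of IP over input given by the authors' peak caller. The number of IP reads at its summit and the local input behind it, in input fragments, were solved from that fold and the deposited −log10 p. An input that is not a whole number of fragments, below or above 1, is an average over a wider window or, at the lowest value of a list, the genome mean. The window's edges fell in stretches without peaks: the nearest member to the lower edge was 1594 kb inside it (COLO205, fold 4.62, 4 IP reads) and the nearest peak below that edge was 129 kb outside (COLO320DM, fold 3.65, 3 reads). At the upper edge the distances were 52.1 kb inside (HCT116, fold 3.85, 3 reads) and 291 kb outside (HCT116, fold 6.17, 14 reads).

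The study profiled N6-methyladenosine (m6A), a methyl mark on adenosines inside messenger and other RNAs, by MeRIP-seq, in which fragmented RNA is pulled down with an antibody to the mark and sequenced beside an input fraction that was not pulled down. The 5 groups are human colorectal cancer lines, HCT116, HT29, HCT15, COLO320DM and COLO205, with 1 immunoprecipitated (IP) and 1 input library each. Estimated depths of the 4 lines with members were 1.38 to 2.99 M reads (M, 1000000 reads) for the IP and 2.24 to 5.41 M for the input. These depths are of reads as the peak caller counted them, which can be fewer than the reads sequenced. The labels record no treatment, genotype or time, and class the cell type of all 5 as colorectum. With 1 IP library per line there is no replicate check of any difference between lines, so no test between lines was possible, and the intervals given are exact 95% intervals that cover counting error only. As peak lists hold no expression values, the labelled cell type was not checked against marker genes.

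The MHC holds, in order along the chromosome, the class I, class III and class II parts. Class I genes encode the HLA molecules that show peptides from inside the cell to CD8+ T cells, among many genes with other roles. Class III is a dense block of genes that includes complement components, the tumour necrosis factor genes and 70 kDa heat shock protein genes. Class II genes encode the HLA molecules that present peptides taken up from outside to CD4+ T cells, and their expression is a feature of antigen-presenting cells. The region is the most variable of the human genome between people, and for that reason hg19 adds 7 further versions of it, named after the cell lines they were sequenced from (APD, COX, DBB, MANN, MCF, QBL and SSTO). Chromosome 6 and these 7 sequences are called 8 copies below. A transcript of this region can match several copies, so that 1 site in RNA can give up to 8 called peaks.

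MHC peaks formed 1.58% of the HCT116 list (149 of 9418, interval 1.34 to 1.85%) and 1.29% of the COLO320DM list (114 of 8832, 1.07 to 1.55%). The share was 0.510% in COLO205 (51 of 9998, 0.380 to 0.670%) and 0.459% in HT29 (41 of 8941, 0.329 to 0.622%). The intervals of the first 2 lines lay above those of the other 2. HCT15, whose whole list holds 917 peaks, had 0 MHC peaks, which allows a share of up to 0.327% with the limit set at 3 counts and up to 0.4015% by the exact interval. Both limits are below the intervals of HCT116 and COLO320DM when the calls on all copies are counted. The exact limit lies within the intervals of HT29 and COLO205, so HCT15 was not distinguishable from these lines. Because repeated calls of 1 site over the copies are not independent, the true uncertainty of these shares is wider than the intervals.

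On chromosome 6 alone the order of the lines was kept, with 22 peaks in HCT116, 15 in COLO320DM, 7 in COLO205 and 5 in HT29. These were 0.234% of the HCT116 list (interval 0.146 to 0.3535%) and 0.170% of the COLO320DM list (0.095 to 0.280%). They were 0.070% in COLO205 (0.028 to 0.144%) and 0.056% in HT29 (0.018 to 0.1305%). The interval of COLO320DM overlapped those of the other lines with members. With its exact limit of 0.4015%, HCT15 was not distinguishable from any line on this copy. Per megabase of the 4.972 Mb window the counts came to 4.42 peaks in HCT116, 3.02 in COLO320DM, 1.41 in COLO205 and 1.01 in HT29. The rest of chromosome 6, measured up to its last peak, held 2.21 peaks per Mb in HCT116, 2.43 in COLO320DM, 2.15 in COLO205 and 1.77 in HT29. At the rate of the rest of the chromosome the window would hold 11.0 peaks in HCT116, 12.1 in COLO320DM, 10.7 in COLO205 and 8.81 in HT29. The HCT116 count of 22 (exact Poisson interval 13.8 to 33.3) lay above that value, and the intervals of COLO320DM (8.40 to 24.7), COLO205 (2.81 to 14.4) and HT29 (1.62 to 11.7) included it. The window and the rest were not matched for gene content, and reads of the window can also match the contigs. The comparison therefore describes peak number alone.

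Between 85.2% (HCT116) and 87.8% (HT29) of each line's MHC peaks lay on the contigs, with 86.8% in COLO320DM and 86.3% in COLO205. Summed over lines, DBB and MCF each held 52 calls, QBL 51, chromosome 6 and MANN 49 each, COX 48, SSTO 38 and APD 16. The copy with the most calls was not the same in each line, by margins of 1 to 2 calls in HT29, COLO320DM and COLO205 that were not tested. HCT116 had 22 calls each on chromosome 6, DBB and QBL and 12 on SSTO. HT29 had its most calls, 8, on SSTO and none on APD. COLO320DM had its most, 19, on MCF, and COLO205 its most, 10, on MANN. APD held the fewest calls in all 4 lines.

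**Figure D1:**
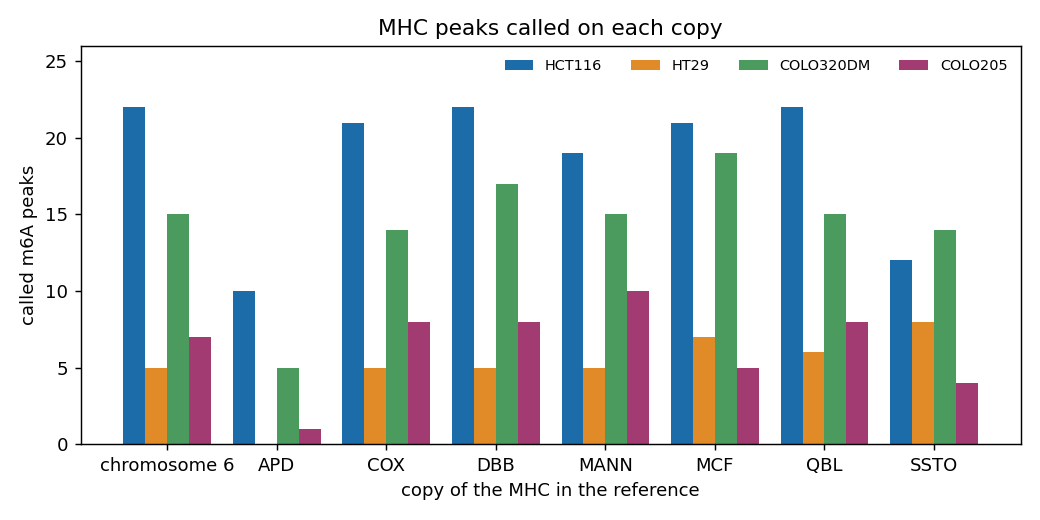
Number of called m6A peaks (vertical axis) on each of the 8 copies of the MHC (horizontal axis) in the 4 lines with MHC peaks; each bar is 1 library. APD held 10, 0, 5 and 1 calls in HCT116, HT29, COLO320DM and COLO205, the fewest of any copy in each line.

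Calls on different copies were joined into loci by the spacing of their summits along each copy, with no use of sequence. Of the 306 contig peaks, 259 (84.6%) could be set on the chromosome 6 scale within 22 collinear stretches. The other 47 peaks were placed only approximately and given a class part but no locus. Of these, 10 were placed within 150 kb of a class boundary, the spread allowed in placing them, so that their part is uncertain, and 3 were placed beyond the upper edge of the window and counted in extended class II. Together with the 49 peaks of chromosome 6, the matched calls made 103 loci, where a locus gathers summits within 50 nt of their neighbours. Of these loci, 56 were called on 1 copy, 47 on 2 or more and 21 on 4 or more. No locus was called on all 8 copies, and 4 were called on 7.

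The number of calls per locus was close in the 4 lines: 1.95 in HCT116 (129 matched calls at 66 loci), 1.98 in COLO320DM (93 at 47), 2.08 in COLO205 (50 at 24) and 2.12 in HT29 (36 at 17). The share of loci called on 2 or more copies was 36.4% in HCT116 (interval 24.9 to 49.1%), 40.4% in COLO320DM (26.4 to 55.7%), 41.7% in COLO205 (22.1 to 63.4%) and 47.1% in HT29 (23 to 72.2%). These intervals overlap throughout. The differences between lines in MHC peak number were therefore also present in the number of loci, with 66, 47, 24 and 17 in HCT116, COLO320DM, COLO205 and HT29.

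Most loci had no call on chromosome 6. In HCT116 44 of 66 loci (66.7%, interval 54.0 to 77.8%) were called on contigs alone, in COLO320DM 32 of 47 (68.1%, 52.9 to 80.9%), in HT29 12 of 17 (70.6%, 44.0 to 89.7%) and in COLO205 17 of 24 (70.8%, 48.9 to 87.4%). Over all lines 67 of the 103 loci had no call on chromosome 6 in any list. A count restricted to the primary chromosome would leave these loci out.

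By class, 165 of the 355 peaks (46.5%) lay in class I and 143 (40.3%) in class III, against 18 (5.07%) in class II, 26 (7.32%) in the extended class II region beyond it and 3 (0.845%) in the extended class I region before it. In matched loci this was 55 in class I, 35 in class III, 4 in class II and 9 in extended class II. As a guide to gene content, the RefSeq table of GRCh38.p14, used only for gene order, lists 52 protein-coding genes from GABBR1 through MICB in class I. It lists 59 from MCCD1 through NOTCH4 in class III and 20 from TSBP1 through HLA-DPB1 in class II. Class II had the fewest matched loci for its genes of these 3 parts, with a further 12 peaks placed only approximately.

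The split between class I and class III varied between lines. HCT116 had 65 peaks in each (43.6%, interval 35.5 to 52.0%). COLO320DM had 47 in class I (41.2%, 32.1 to 50.8%) and 44 in class III (38.6%, 29.6 to 48.2%), and COLO205 had 26 (51.0%, 36.6 to 65.3%) and 24 (47.1%, 32.9 to 61.5%). HT29 leaned to class I, with 27 peaks there (65.9%, 49.4 to 79.9%) and 10 in class III (24.4%, 12.4 to 40.3%). Its intervals overlapped those of each of the other 3 lines in both parts, and the difference itself was not tested.

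**Figure D2:**
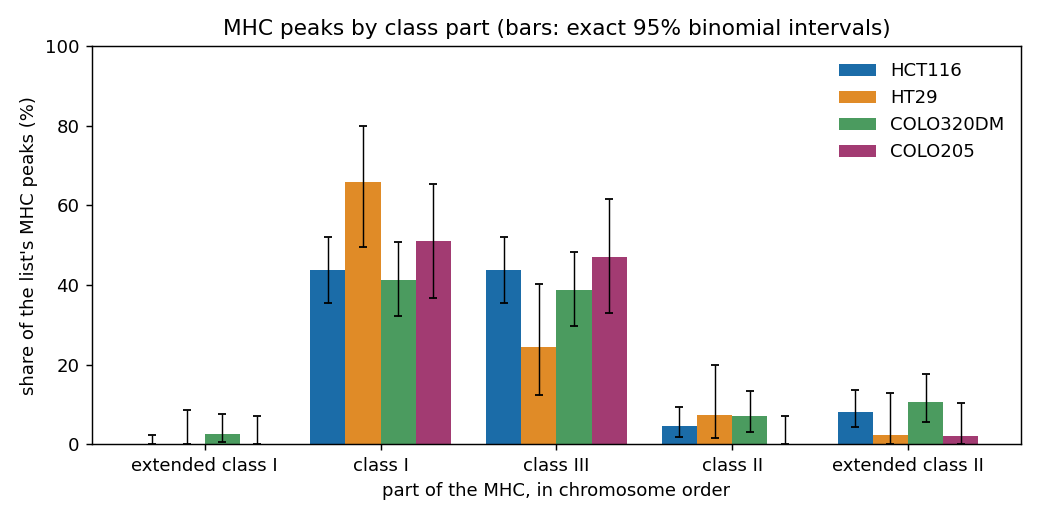
Share of each line's MHC peaks (vertical axis, %) in the 5 parts of the MHC in chromosome order (horizontal axis); bars are single libraries and error bars exact 95% binomial intervals. HT29 placed 65.9% of its MHC peaks in class I and 24.4% in class III, whereas HCT116 placed 43.6% in each.

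Class II, the part that encodes the HLA-DR, HLA-DQ and HLA-DP molecules and parts of the peptide-loading machinery, held 8 peaks in COLO320DM, 7 in HCT116, 3 in HT29 and 0 in COLO205. The 0 of 51 in COLO205 allows a share of up to 5.88% of its MHC peaks by the limit of 3 counts and 6.98% by the exact interval. Both lie within the intervals of HCT116 (1.91 to 9.44%), COLO320DM (3.08 to 13.4%) and HT29 (1.54 to 19.9%), so a difference was not detectable at this depth. Of the 18 class II peaks, 12 were placed only approximately, 4 of them within 150 kb of a boundary, and 2 lay on chromosome 6. The HCT116 peak was at chr6:32948628-32948768 with 10 IP reads over 3 input fragments and a fold of 3.86. The COLO320DM peak was at chr6:32869407-32869479 with 3 IP reads and a fold of 3.82. The highest class II fold, 8.63, was called in HCT116 on MANN at positions 4405907 to 4406005 with 14 reads. That peak is among those placed within 150 kb of the boundary.

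Extended class II held 12 peaks each in HCT116 and COLO320DM and 1 each in HT29 and COLO205. Its most enriched locus was called in COLO320DM alone, at chr6:33287794-33287956 with 10 IP reads and a fold of 6.82, and on QBL at positions 4520051 to 4520145 with 18 reads and a fold of 8.28. The 3 peaks of extended class I were all from COLO320DM, on COX, DBB and QBL, with 2, 4 and 5 IP reads.

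Class III was called most often at 1 short stretch. The locus with the most calls of the whole set had its median summit at position 31600510 of chromosome 6 and 24 calls on 7 copies in 4 lines. Within 2 kb of it lay 7 loci spread over 1.43 kb, with 59 calls in all, which made up 41.3% of the class III calls and 16.6% of all MHC calls. The share of class III calls in this stretch was 33.8% in HCT116 (22 of 65), 40% in HT29 (4 of 10), 45.5% in COLO320DM (20 of 44) and 54.2% in COLO205 (13 of 24). An annotation on hg19 was not used here, so no gene is assigned to this stretch or to any other locus.

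At position 31600510 HCT116 had calls on 7 copies with 19 to 27 IP reads each, COLO320DM on 7 copies with 21 to 32, COLO205 on 6 copies with 6 to 11 and HT29 on 4 copies with 16 to 18. On chromosome 6 itself the peak was chr6:31600178-31600687 in HCT116 (21 reads, fold 7.48), chr6:31600431-31600656 in COLO320DM (21 reads, fold 4.51) and chr6:31600459-31600632 in COLO205 (6 reads, fold 4.51). HT29 had no call on chromosome 6 there and was called on MANN, MCF, QBL and SSTO. Summed over the called copies and divided by the IP depth, the locus had 120 reads per M IP reads in COLO320DM (exact Poisson interval 103 to 139), 117 in HCT116 (99.3 to 136), 31.5 in HT29 (24.4 to 40) and 18.1 in COLO205 (13.6 to 23.6). COLO320DM and HCT116 were not distinguishable within counting error and stood above HT29, which stood above COLO205. The sum covers called copies only, and counts a read more than once if the aligner reported it on several copies, which is not recorded. The intervals would then be too narrow.

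The input differed between lines at the same locus. The local input was 5 to 12.0 fragments under the COLO320DM calls, 2.63 to 7 in HCT116, 3 to 6 in HT29 and 1 to 2 in COLO205. The folds were 2.62 to 7.66 in COLO320DM, 4.52 to 9.23 in HCT116, 3.33 to 5.79 in HT29 and 4.28 to 7.73 in COLO205. The ranges of fold overlapped between all 4 lines.

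Another 2 loci of the stretch were each called in HCT116, COLO320DM and COLO205 and not in HT29. At position 31599244 the calls held 18 to 28 reads on 6 copies in HCT116, 17 to 24 on 5 copies in COLO320DM and 7 to 10 on 3 copies in COLO205. The highest fold of HCT116, 11.7, was the call at this locus on COX, with 28 reads over 2.40 input fragments. In COLO320DM the COX call at the same locus had 22 reads over 12.0 input fragments and a fold of 2.62. At position 31599756 HCT116 was called on 7 copies (16 to 23 reads), COLO320DM on 3 (22 to 26) and COLO205 on 3 (8 to 9). Another locus of the stretch, at position 31600220, held summits of COLO320DM alone, on 5 copies with 19 to 25 reads. Loci are set by summits, and by extent the line was not alone there. On chromosome 6 the HCT116 peak chr6:31600178-31600687, with its summit in another locus, overlapped the COLO320DM call chr6:31600121-31600206.

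The other class III locus found in 4 lines had its median summit at position 31631952 and 23 calls on 7 copies. It differed from the first in having almost no input. The calls held 3 to 8 IP reads in HCT116, 4 to 9 in HT29, 6 to 15 in COLO320DM and 3 to 13 in COLO205. The local input was at most 1 fragment in HCT116, HT29 and COLO205 and at most 2 in COLO320DM. The highest fold of COLO320DM, 14.2, was the MCF call of this locus, with 15 reads over 0.197 fragments. Summed reads were 44.1 per M IP reads in COLO320DM (interval 34.1 to 56.2), 18.8 in HCT116 (12.3 to 27.6), 17.1 in COLO205 (12.7 to 22.4) and 12.7 in HT29 (8.37 to 18.5). The interval of COLO320DM lay above those of the other 3 lines, which overlapped, but the sums run over 7 called copies in COLO320DM and COLO205, 5 in HCT116 and 4 in HT29. These intervals too would be too narrow if reads were reported on several copies. On chromosome 6 the peak was called in all 4 lines, at chr6:31631875-31632001 in HCT116, chr6:31631892-31632000 in HT29, chr6:31631857-31632094 in COLO320DM and chr6:31631801-31632052 in COLO205, with 6, 7, 6 and 6 reads. These reads were not divided by the IP depth. They are too few to show whether the lead of COLO320DM holds on that copy.

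Class III also held neighbouring sites that were followed by further sites at a similar distance within single copies. On chromosome 6 sites at 31784172 and 31785072 were followed by sites at 31796398 and 31797283, at distances of 12226 and 12211 nt. Site pairs 12174 to 12451 nt apart were called on APD, COX, DBB and QBL as well. Calls at 31785113 came from HCT116, COLO320DM and COLO205 on 5 copies, and calls at 31797299 from HCT116 alone on 5 copies. The next locus, at 31797674, was called on DBB in HCT116 and COLO205. Reads from 2 near-identical neighbouring sequences cannot be told apart in a peak list, and without the sequence it was not tested whether these stretches are alike.

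In class I the locus with the most reads had its median summit at position 30711574. It was called on the same 6 copies (chromosome 6, COX, DBB, MANN, QBL and SSTO) in each of 3 lines and was not called in COLO320DM. In HCT116 the reads per copy were 59 on chromosome 6, 60 on COX, 59 on DBB, 58 on MANN, 63 on QBL and 61 on SSTO. In COLO205 they were 37, 36, 36, 31, 35 and 42 in the same order. In HT29 they were 20, 21, 19, 21, 20 and 20. The reads per copy hardly varied within a line, with the highest 1.09 times the lowest in HCT116, 1.11 times in HT29 and 1.35 times in COLO205. These reads, not divided by the IP depth, did not overlap between the 3 lines.

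The peak of this locus on chromosome 6 was chr6:30711492-30711760 in HCT116, chr6:30711522-30711737 in HT29 and chr6:30711487-30711750 in COLO205. Over the 6 copies the reads came to 261 per M IP reads in HCT116 (interval 235 to 289), 72.6 in COLO205 (63.3 to 83.0) and 56.9 in HT29 (47.2 to 68.0). With depth taken into account, the intervals of COLO205 and HT29 overlapped. If the aligner reported a read on several copies, the sums count it more than once and the intervals are too narrow. The local input was 16.0 to 24.0 fragments per copy in HCT116, 2.33 to 8 in COLO205 and 2 to 5 in HT29. Per M input reads the summed input was 57.6 fragments in HCT116, 5.24 in COLO205 and 6.45 in HT29. The folds were 3.89 to 5.53 in HCT116, 4.52 to 9.28 in HT29 and 7.02 to 15.8 in COLO205. HCT116 therefore had the most IP reads and the lowest top fold at this locus, and the QBL call of COLO205, with 35 reads over 2.33 fragments, had the highest fold of all 355 peaks.

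**Figure D3:**
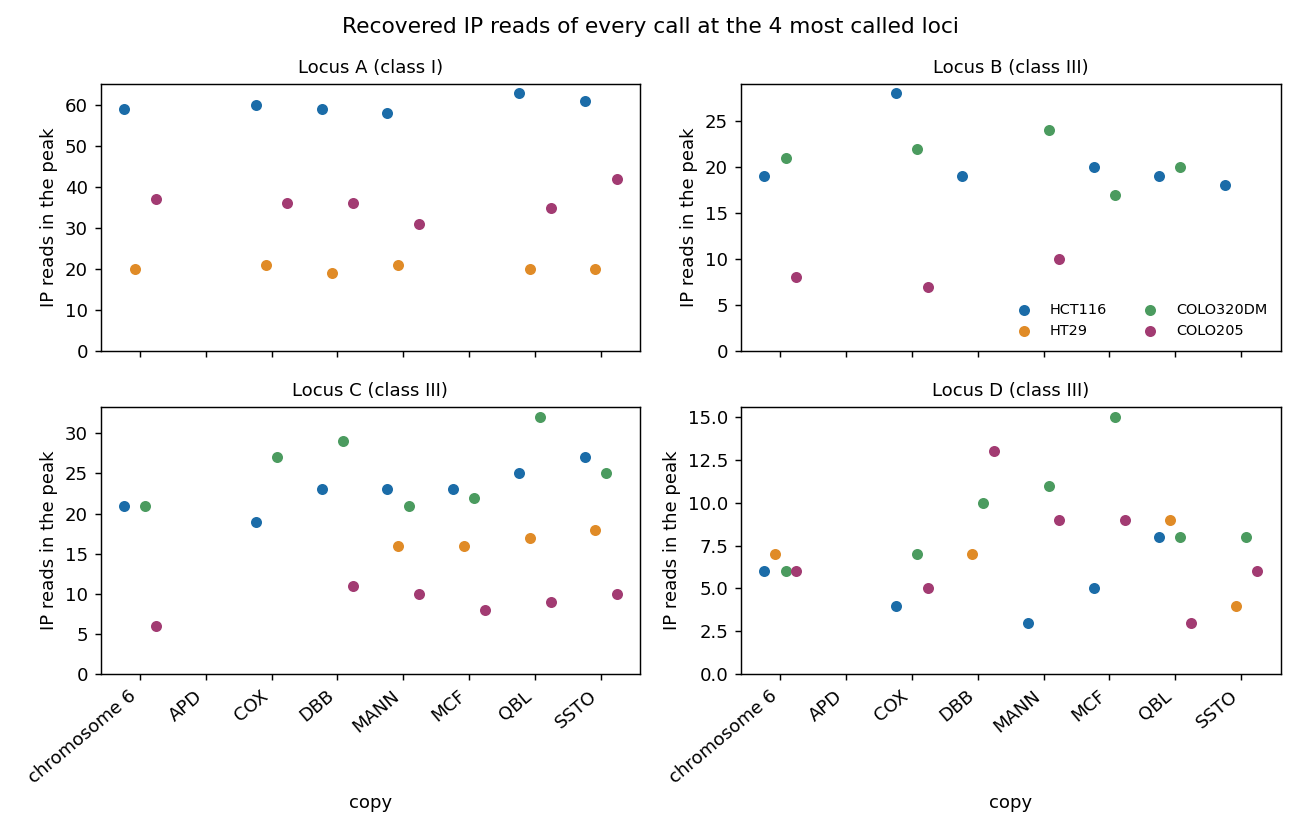
IP reads recovered in every called peak (vertical axis) on each copy (horizontal axis) at the 4 loci with the most calls, 1 point per call, colours for lines; locus A is at position 30711574, B at 31599244, C at 31600510 and D at 31631952 of chromosome 6. At locus A the reads of HCT116 (58 to 63), COLO205 (31 to 42) and HT29 (19 to 21) form separate bands, with no COLO320DM call. The reads are not divided by the IP depth, which differs between lines.

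Another 3 class I loci were found in 4 lines, each with at most 20 reads per copy. At position 30652795 HCT116 had calls on COX, MANN and QBL with 19, 8 and 7 reads, and COLO205 on COX and DBB with 20 and 4. COLO320DM was called there on chromosome 6 (chr6:30652744-30652841) and MANN with 5 and 3 reads, and HT29 on chromosome 6 (chr6:30652779-30652879) and MCF with 5 and 6. The COX copy thus carried the strongest call in HCT116 and COLO205, with folds of 8.96 and 9.98, and no call in the other 2 lines.

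At positions 30153985 and 30548199 the 4 lines met only on contigs, with no call on chromosome 6. The first was called on MCF and QBL in HCT116 (8 and 4 reads), on COX in HT29 (10 reads), on MCF, QBL and SSTO in COLO320DM (4, 6 and 4 reads) and on MANN, MCF and SSTO in COLO205 (6, 7 and 4 reads). The second was called on COX and DBB in HCT116 (4 and 6 reads), on MCF and SSTO in HT29 (8 and 9), on COX, DBB and MCF in COLO320DM (6, 6 and 5) and on COX in COLO205 (5). At both loci the reads per copy lay between 4 and 10, and no copy was called in all 4 lines.

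Several class I loci belonged to fewer lines. The locus at position 30545872 was called in HT29 alone, on MANN, MCF, QBL and SSTO with 6, 9, 8 and 8 reads and folds of 5.34 to 7.95. The locus at 30638885 was called in COLO320DM on 4 copies (6 to 8 reads, folds 5.46 to 8.22) and in COLO205 on 2 (4 and 5 reads). The locus at 30653172 gave the highest class I fold of HCT116, 9.49 with 12 reads on MANN, and was called in COLO205 on COX and QBL with 9 and 5 reads. All 13 loci described singly here, in class I, class III and extended class II, were chosen by a rule on lists, fold, reads and copies, so their high values are a description.

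Sharing between lines depended on the copies. Of the 103 joined loci, 70 were called in 1 line, 20 in 2, 8 in 3 and 5 in 4. On chromosome 6 alone 35 regions were found, of which 8 were in 2 or more lines and 1 in 4. Of the 33 loci in 2 or more lines, 14 were joined only across copies: no single copy held calls of more than 1 line. The shifts between copies were chosen to match the most sites pooled over all lists, which can itself raise this sharing. Approximately placed peaks were left out of the loci even where lines overlapped, as on SSTO at 3189800 to 3189885 in COLO320DM and 3189806 to 3189880 in HCT116. Of the loci of COLO205, 87.5% (21 of 24, interval 67.6 to 97.3%) were called in another line, against 64.7% in HT29 (11 of 17, 38.3 to 85.8%), 51.1% in COLO320DM (24 of 47, 36.1 to 65.9%) and 42.4% in HCT116 (28 of 66, 30.3 to 55.2%). These locus shares have no whole-list value of the same kind beside them. HCT116 and COLO320DM shared 19 loci, 28.8% of the HCT116 loci and 40.4% of those of COLO320DM. HCT116 and COLO205 shared 17, which was 25.8% and 70.8%, and HT29 and COLO205 shared 7, which was 41.2% and 29.2%.

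Sequence by sequence, without joining copies, 35.6% of the HCT116 MHC peaks (interval 27.9 to 43.8%) were overlapped by a peak of another list, against 61.5% of the whole HCT116 list. The figures were 42.1% (32.9 to 51.7%) against 52.7% in COLO320DM, 53.7% (37.4 to 69.3%) against 63.6% in HT29 and 76.5% (62.5 to 87.2%) against 65.1% in COLO205. The interval lay below the whole list in HCT116 and, by a small margin, in COLO320DM, and included the list's value in HT29 and COLO205. On chromosome 6 alone, where calls are not repeated over copies, the share was 22.7% in HCT116 (5 of 22, 7.82 to 45.4%) and 46.7% in COLO320DM (7 of 15, 21.3 to 73.4%), and the interval of COLO320DM included the list's value. Overlap by sequence counts 2 lines called on different copies of 1 locus as not shared.

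In fold, the MHC peaks differed little from their lists. The median was 4.95 against 5.08 for the whole HCT116 list, 5.35 against 5.67 in HT29, 4.80 against 5.23 in COLO320DM and 5.54 against 5.66 in COLO205. The order turned with how copies were counted: with 1 peak per locus the median was 5.27 in HCT116 and 5.73 in HT29, above their lists, and on chromosome 6 alone it was 5.26 in COLO320DM and 5.80 in COLO205, above theirs. In the count of 1 peak per locus, each approximately placed peak stood as a locus of its own. The widths were also close, at 114 nt against 117 in HCT116 and 109 against 129 in HT29, with 94.5 against 114 in COLO320DM and 104 against 126 in COLO205. The share of MHC peaks past a −log10 q of 5 was 48.3% in HCT116, 43.9% in HT29 and 38.6% in COLO320DM, where the whole lists had 53.7%, 59.4% and 54.3%. In COLO205 it was 60.8% against 59.6%. The MHC peaks of COLO320DM held a median of 6.0 IP reads, against 12.0 over its list, and those of HCT116 held 9.0 against 11.0. In HT29 both medians were 8.0, and in COLO205 they were 7.0 and 9.0.

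The input library beneath or around a peak shows whether the RNA was seen without the antibody. Peaks counted as lying over at least 1 input fragment include those whose input is an average over a wider window. Peaks over at least 1 input fragment made up 57.0% of the HCT116 MHC peaks (interval 48.7 to 65.1%), close to the 58.1% of its list. In COLO205 they made up 49.0% (34.8 to 63.4%), close to 51.8%, and in HT29 53.7% (37.4 to 69.3%), above the list's 39.0% with an interval that includes it. In COLO320DM they made up 38.6% (29.6 to 48.2%), below the list's 61.8%. By these intervals COLO320DM was the single line whose MHC peaks departed from its list. The shares depended on the threshold: with 1 threshold of background over the genome mean for all lists COLO205 had 13.7%, HT29 31.7%, COLO320DM 38.6% and HCT116 46.3%. The whole-list shares at this threshold are not given, so these values do not compare the MHC peaks with their lists.

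Class I and class III differed in input. In HCT116 24 of 65 class I peaks (36.9%, interval 25.3 to 49.8%) and 48 of 65 class III peaks (73.8%, 61.5 to 84.0%) lay over at least 1 input fragment. In COLO320DM these were 7 of 47 (14.9%, 6.20 to 28.3%) and 27 of 44 (61.4%, 45.5 to 75.6%). In HT29 (44.4% and 70.0%) and COLO205 (42.3% and 54.2%) the intervals overlapped. Each locus was then counted once, and each approximately placed peak as a locus of its own. The shares were 27.5% in class I and 65.5% in class III for HCT116, 13.8% and 52.6% for COLO320DM, 42.9% and 75% for HT29, and 33.3% and 66.7% for COLO205. By loci the intervals stayed apart in HCT116 (14.6 to 43.9% and 45.7 to 82.1%) and overlapped in COLO320DM (3.89 to 31.7% and 28.9 to 75.5%).

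The class III share rested in part on the stretch around position 31600510. Without its loci, a choice made after seeing the data, 60.5% of the HCT116 class III calls lay over input (26 of 43, interval 44.4 to 75%) and 29.2% of those in COLO320DM (7 of 24, 12.6 to 51.1%). In HT29 the share was 50% (3 of 6) and in COLO205 18.2% (2 of 11). Leaving out the loci around the most called class I locus in the same way, at position 30711574, gave class I shares of 29.3% in HCT116 (17 of 58, interval 18.1 to 42.7%), 14.9% in COLO320DM (7 of 47), 28.6% in HT29 (6 of 21) and 25% in COLO205 (5 of 20, 8.66 to 49.1%). With both stretches left out, the class III share stayed above that of class I with separate intervals in HCT116. The intervals overlapped in the other 3 lines, and in COLO205 they were too wide (2.28 to 51.8% in class III) to give a direction.

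**Figure D4:**
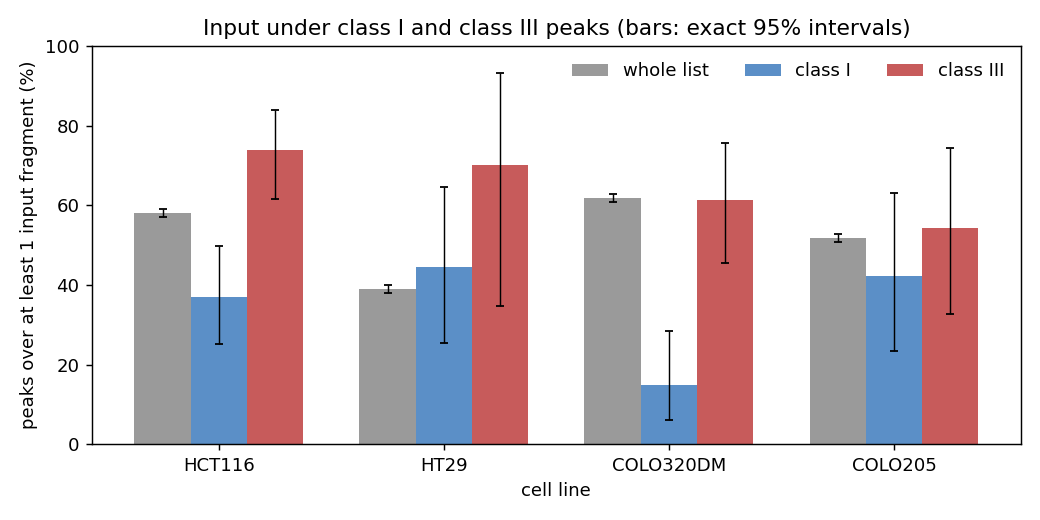
Share of peaks over at least 1 input fragment (vertical axis, %) in the whole list and in class I and class III of the MHC for each line (horizontal axis); bars are single libraries and error bars exact 95% binomial intervals. In COLO320DM 14.9% of class I and 61.4% of class III peaks lay over input, against 61.8% of its whole list.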

How the data were processed

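The 5 peak lists (1 per line) from 5 IP and 5 input libraries were used. Per the submitters' processing notes, cutadapt, FastQC, BWA and MACS2 were used on hg19, with no versions. The deposited columns hold, per peak, the authors' score, fold enrichment (a ratio), −log10 p and −log10 q. No source used here says how reads matching several copies were placed. From fold and −log10 p, as MACS2 defines them with a pseudocount of 1, IP reads and local input background were solved for each peak (misfit at most 0.001), and input was expressed in fragments by the scaling seen as steps in each list. The genome mean of the background gave IP depths of 1.38 (HCT116), 2.12 (HT29), 1.47 (COLO320DM) and 2.99 M reads (COLO205; M, 1000000 reads), and input depths of 2.24, 3.1, 2.28 and 5.41 M, with a genome size of 2.7 Gb. This was not done for HCT15, which has no member, and takes each list's control to be that line's input, which no source used here states. The most IP reads at a summit of a whole list were 150 in HCT116 and COLO205, 146 in COLO320DM and 134 in HT29. Fragments were 73 nt in COLO320DM and 75 nt in the other lines. Whether repeated reads at a position were removed before counting, which would cap these counts, was not tested. Copies were aligned by summit spacing (shifts within 80 nt, loci within 50 nt). Class boundaries were 29.6, 31.48, 32.2 and 33.1 Mb. The solving of reads was tested on simulated peaks made with the same formula. The alignment of copies was tested on simulated copies that held no false or repeated sites. These tests do not measure the errors in the lists used here. Intervals are exact Clopper-Pearson or Poisson at 95%, and the limit from a count of 0 is 3 counts. Named loci were those in 4 or 5 lists and, per list, the 3 with the highest fold, most IP reads and most copies. Alternatives on boundaries, thresholds, summit distance, pseudocount and lists are given in the closing section. Members and lists were chosen with earlier results of these data known. Python, numpy, pandas, scipy and matplotlib were used. The gene count of extended class II is not reported here.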

Additional observations from a re-analysis of the deposited data

How the results depend on the processing

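No paired analysis was possible because each line has 1 IP library and no replicate. With a −log10 q of at least 5, the class III share moved to 52.8% in HCT116 and 50% in COLO320DM, and the share of loci on 2 or more copies to 24.0% in COLO320DM. With summits within 10 nt that share fell to 19.2% in HCT116 and 25.0% in COLO320DM. One input threshold for all lists, relative to the genome mean, gave input shares of 46.3% in HCT116, 31.7% in HT29 and 13.7% in COLO205, without whole-list shares to set beside them. Chromosome 6 alone gave 28.6% in COLO205 at the first threshold. Without the pseudocount the median folds were 14.6 in both HCT116 (14.61) and HT29 (14.59), 26.2 in COLO320DM and 23.5 in COLO205; on chromosome 6 alone COLO320DM had 5.26. Loci in 2 or more lists numbered 8 on chromosome 6 alone, 6 on chromosome 6 alone with 50% reciprocal overlap, 18 without the HCT116 list and 20 without the COLO320DM list. Fewer peaks entered each of these, and the reciprocal overlap is also stricter. Without the stretch around position 31600510, the class III input share was 60.5% in HCT116, 29.2% in COLO320DM and 18.2% in COLO205, a choice made after seeing the data. Where no construction explains a move, the cause was not tested. In the other 46 comparisons, 4 of them the class III share over matched peaks alone (chosen after seeing the data), the values stayed within the interval of the reported value or, for counts of loci, within 1.5 times. Fewer than 5 IP reads lay behind 9.76% of the MHC peaks of HT29 (whole list 17.0%), 11.8% of those of COLO205 (13.7%), 22.8% for HCT116 (25.1%) and 30.7% for COLO320DM (20.6%), and such peaks are the least certain.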
